A study of Mus musculus with 15 samples.

Results

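The 10 genes described here make up a core of the antioxidant defence and of the response driven by the transcription factor Nrf2. They are Nfe2l2, which encodes Nrf2 itself, its classical targets Nqo1, Hmox1, Gclc, Gclm and Srxn1, and the antioxidant enzymes Sod1, Sod2, Cat and Gpx1. They were chosen by name, with earlier results of these data known, and all 10 were found among the 43629 genes counted in whole-brain RNA. The brains came from 15 wildtype male C57BL/6J mice that had either food always present (ad libitum, AL) or food on alternate days (every-other-day feeding, EOD, begun at 2 months of age). The labels give 3 months as the age of the 4 young AL and 3 young EOD mice, and 24 months as the age of the 4 old AL and 4 old EOD mice. No transgene or drug was used, each library is labelled as a separate mouse, and the samples hold all cell types of the brain. In such bulk tissue, fewer cells of a type and less RNA per cell cannot be told apart. The comparisons ask whether these genes differed with age under each diet, with diet at each age, and whether the age difference depended on diet.

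Nrf2 is made continuously and, in unstressed cells, is held by the adaptor Keap1 and sent for degradation. Oxidants and electrophiles modify Keap1, Nrf2 then enters the nucleus, pairs with a small Maf protein and binds the antioxidant response element in its target genes. In the brain the pathway is known best from astrocytes, which supply neighbouring neurons with glutathione precursors. Because Nrf2 is controlled mainly at the level of the protein, its targets' transcripts are commonly used as its readout. Superoxide dismutases turn superoxide into hydrogen peroxide, which catalase, glutathione peroxidases and peroxiredoxins then remove.

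Matches to the core of the antioxidant response element were searched for in promoter windows of RefSeq genes on GRCm38.p6. Each window ran from 250 bases before to 50 bases after an annotated start, and sequence farther away was not searched. Windows were found for 8 of the 10 genes (Hmox1 and Gclc were not among them). The core motif TGANNNNGC, searched on both strands, occurred in 4 of these 8 (Nfe2l2, Gclm, Srxn1 and Sod1) and in 41.3% of all 32851 windows of the same length. The stricter form TGANTCAGC, which contains the AP-1 motif TGANTCA, occurred in Srxn1 alone of the 8 and in 1.19% of all windows. The windows of Srxn1 (chr2:152105274-152105573, plus strand), Nfe2l2 (chr2:75704614-75704913, minus strand) and Gclm (chr3:122245307-122245606, plus strand) are printed because they show the strict form, a match in the gene for Nrf2 itself, and a match in a glutathione gene. Capitals mark the matches, and those on the opposite strand read GCNNNNTCA. The strict match of Srxn1 began at position -45 from the start and the match of Nfe2l2 at -240. A match is a description of letters and was not tested as a binding site.
Srxn1: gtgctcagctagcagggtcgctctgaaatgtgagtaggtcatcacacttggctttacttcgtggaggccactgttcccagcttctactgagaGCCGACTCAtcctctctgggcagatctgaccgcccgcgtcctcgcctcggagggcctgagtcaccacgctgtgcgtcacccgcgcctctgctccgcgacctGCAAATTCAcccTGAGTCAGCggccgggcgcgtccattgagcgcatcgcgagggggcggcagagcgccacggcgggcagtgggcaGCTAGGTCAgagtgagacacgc
Nfe2l2: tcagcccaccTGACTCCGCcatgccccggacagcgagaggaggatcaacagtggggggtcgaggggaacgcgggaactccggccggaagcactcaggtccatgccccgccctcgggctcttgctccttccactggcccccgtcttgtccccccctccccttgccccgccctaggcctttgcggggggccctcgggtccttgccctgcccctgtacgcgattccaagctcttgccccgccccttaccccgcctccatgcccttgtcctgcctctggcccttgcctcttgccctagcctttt
Gclm: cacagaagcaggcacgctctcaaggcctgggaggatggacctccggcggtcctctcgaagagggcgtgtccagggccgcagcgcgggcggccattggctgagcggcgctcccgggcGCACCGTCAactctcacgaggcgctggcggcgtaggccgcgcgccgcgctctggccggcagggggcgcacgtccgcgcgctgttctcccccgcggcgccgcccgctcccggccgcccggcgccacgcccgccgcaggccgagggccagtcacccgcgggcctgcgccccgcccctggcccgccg

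Read depth ranged from 5198748 to 13610729 counts per mouse, and all 10 genes were among the 15864 that passed the filter on low counts, so that no member was lost. The lowest count of any member in any mouse was 10, for Hmox1 in young AL replicate 3. That library stood apart: it had the largest total but only 17280 genes with at least 1 count, against 19054 to 20880 in the other 14 mice. Its summed choroid plexus markers (Ttr, Kl, Folr1 and Clic6) reached 326 CPM (counts per M counts, scaled with edgeR's TMM factors), against 454 to 1218 in the other mice, its summed erythroid markers 27.95 against 42.1 to 100.7, and its summed neuron markers (Snap25, Syt1, Rbfox3 and Stmn2) 7472 against 5640 to 6680. Another library, old AL replicate 4, held 989 CPM of pituitary markers (Gh, Prl, Pomc and Tshb), against 0.680 to 17.2 in the other mice. Markers of neurons, astrocytes, oligodendrocytes and microglia, 4 for each type, were present in every mouse. Where young AL replicate 3 turned a call, or moved a difference of Nfe2l2 or Hmox1 by more than 1.5 times, the value without it is given as well.

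The members differed widely in level. Levels between genes were compared as CPM per kb of exon. Sod1, the cytosolic copper-zinc superoxide dismutase, was the highest with a mean of 150.6 CPM per kb (SD 16.3, n = 15 mice). Srxn1, which repairs over-oxidized peroxiredoxins, followed at 47.6 ± 2.63, and Sod2, the mitochondrial manganese dismutase, at 40.9 ± 1.92. Each of the 3 lay above the next in 15 of 15 mice. Gpx1, the selenium-containing cytosolic glutathione peroxidase, had 25.4 ± 3.69 CPM per kb and Gclc, the catalytic subunit of the enzyme that limits glutathione synthesis, had 23.3 ± 1.34. Gpx1 was above Gclc in only 9 of 15 mice, so that these neighbours did not differ beyond their spread. Catalase (Cat), the peroxisomal enzyme, followed at 21.00 ± 1.195 and Gclm, the modifier subunit partnering Gclc, at 16.5 ± 1.24. Nfe2l2 itself was much lower at 6.05 ± 1.09 CPM per kb. Nqo1, a quinone reductase, and Hmox1, the inducible heme oxygenase, closed the order at 4.20 ± 0.684 and 2.40 ± 0.892. Apart from Gpx1 over Gclc, each gene was above the next in all 15 mice.

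**Figure D1:**
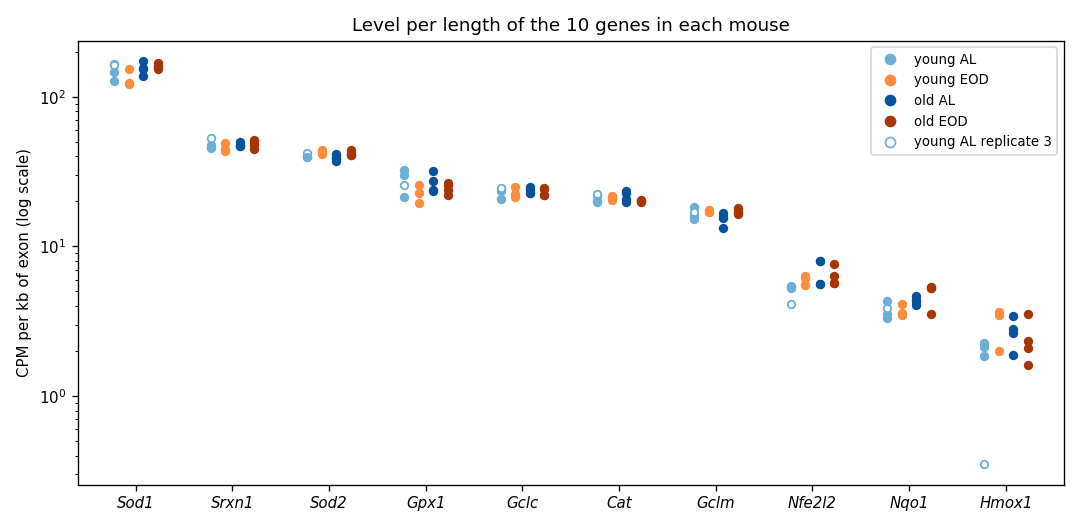
Level of each gene in CPM per kb of exon (log axis) in each of the 15 mice, coloured by group, with young AL replicate 3 as an open circle. Sod1 is the highest gene in every mouse, Hmox1 the lowest, and the clouds of Gpx1 and Gclc overlap.

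How tightly the mice of a group held a gene also differed between members. The within-group SD on the log2 scale was 0.0505 for Sod2, 0.0776 for Cat, 0.0828 for Srxn1, 0.0932 for Gclc and 0.101 for Gclm. Sod1 had 0.144 and Nqo1 0.183, and these 7 lay below the median of 0.197 over all genes tested. That median covers genes of every level, including low ones with a larger counting error, and was not matched to the members' levels. Gpx1 had 0.201 and Nfe2l2 0.215. Hmox1 had the widest spread of the 10 at 0.697, which fell to 0.382 without young AL replicate 3.

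The groups were compared by the quasi-likelihood test of edgeR over all 15864 genes in 1 fit, and a gene was called at an adjusted p (Benjamini-Hochberg) under 0.1. In old against young AL mice 0 of the 10 members were called, against 1.09% of all genes tested (173 genes), and 1 member had an unadjusted p under 0.05, as did 9.52% of all genes. The median log2 fold change of the 10 was 0.03, against -0.01 over all genes, and 6 of 10 were above 0. In old against young EOD mice 0 of 10 were called, against 0.29% of all genes, with 2 members at an unadjusted p under 0.05 (5.74% of all genes) and a median log2 fold change of 0.05. Averaged over diets, 0 of 10 were called with age, against 2.3% of all genes (365 genes), with 3 members at an unadjusted p under 0.05 (11.7% of all genes), 7 of 10 above 0 (48.5% of all genes) and a median of 0.04. DESeq2 on the same 15 mice also called 0 of 10 in each of these comparisons.

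**Figure D2:**
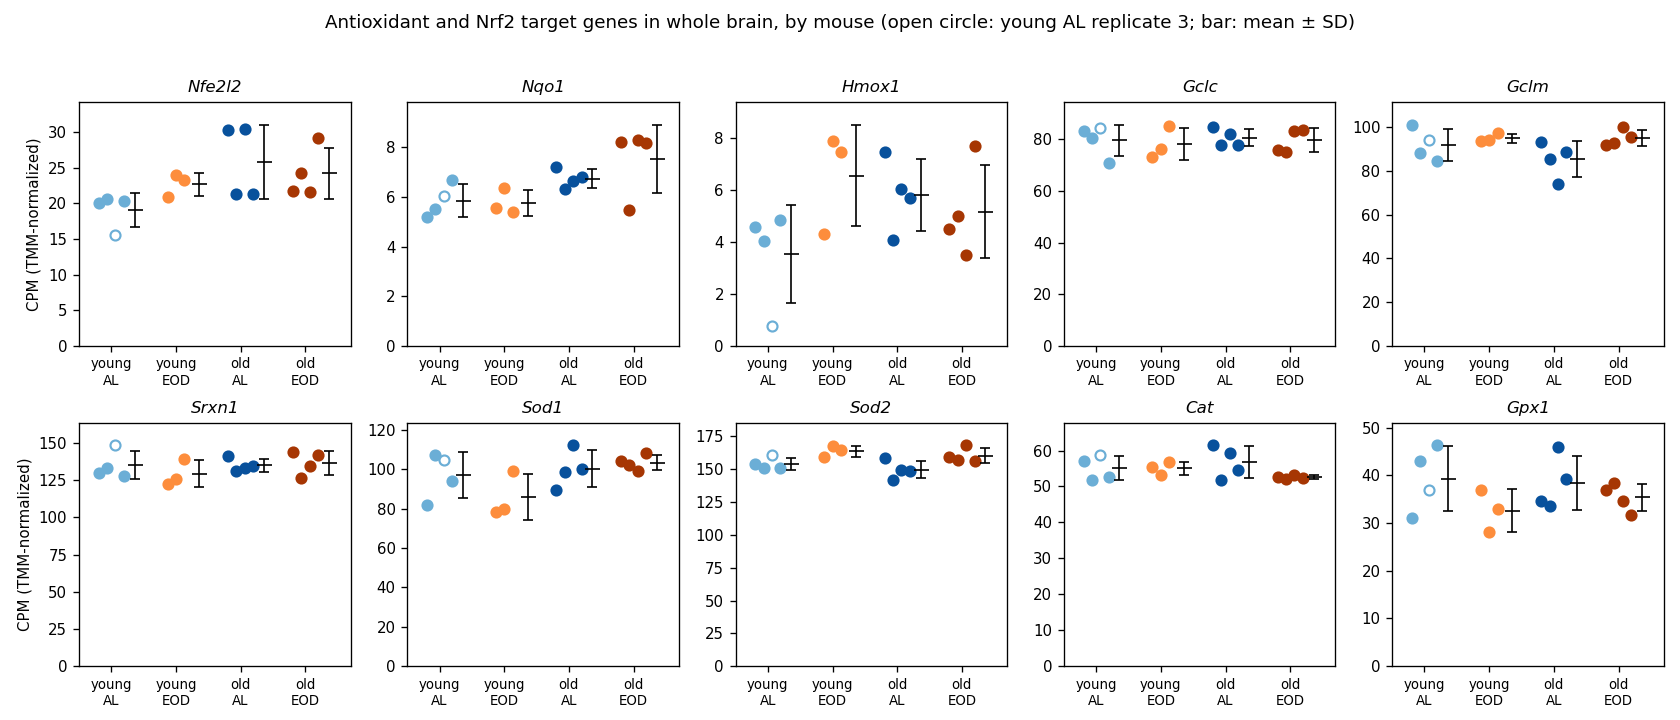
TMM-normalized CPM of the 10 genes in each mouse (points, from 0 on each axis), by group, with mean ± SD beside the points and young AL replicate 3 as an open circle. The 4 groups overlap for most genes, the 4 old AL mice lie above the 4 young AL mice for Nfe2l2, and Hmox1 in the open-circle mouse is far below the rest.

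Nfe2l2 was the member with the smallest p for age. It is a gene of chromosome 2 (chr2:75675513-75704641, minus strand, GRCm38). The young AL mice had 20.0, 20.6, 15.6 and 20.2 CPM of Nfe2l2, and the old AL mice 30.2, 21.3, 30.5 and 21.3. All 4 old AL mice were above all 4 young AL mice, with a pair of old mice near 30 and a pair close to the young range. The share of all genes tested whose groups separate in this way was not counted, here or for the genes below. The log2 fold change was 0.43 (SE 0.14, 95% confidence interval 0.13 to 0.72), with an unadjusted p of 0.00658 and an adjusted p of 0.257 in edgeR, so that it was not called. Without young AL replicate 3, the lowest of the 15 mice, it was 0.34 (adjusted p = 0.543 in edgeR). With every gene of at least 1 count kept, Nfe2l2 passed the threshold in edgeR (adjusted p = 0.0802). It was then 1 of 444 genes called among 26269 tested. Within sequencing lanes, each with 1 or 2 mice a group, the log2 difference was 0.57, 0.70 and 0.08, and the young AL mouse of the lane with the largest value was replicate 3. The young EOD mice had 20.8, 23.9 and 23.3 CPM and the old EOD mice 21.8, 24.2, 21.5 and 29.1. These EOD groups overlapped, with a log2 fold change of 0.10 (95% confidence interval -0.22 to 0.41).

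Nqo1 (chr8:107388225-107403206, minus strand) detoxifies quinones by reducing them with NAD(P)H. It had 5.18, 5.497, 6.04 and 6.69 CPM in young AL mice and 7.21, 6.30, 6.62 and 6.81 in old AL mice. It had 5.54, 6.36 and 5.39 CPM in young EOD mice and 8.21, 5.46, 8.29 and 8.18 in old EOD mice. Among the old EOD mice 3 were above every young mouse, and replicate 2 was at the young level. The log2 fold change with age was 0.20 in AL (SE 0.17), 0.40 in EOD mice (SE 0.19, unadjusted p = 0.0476) and 0.30 averaged over diets (SE 0.13), with adjusted p of 0.763, 0.866 and 0.350 in edgeR. Within the lane that holds old EOD replicate 2 the EOD difference was -0.10, and in the other lane with both groups it was 0.55.

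Hmox1 (chr8:75093591-75100596, plus strand) opens the heme ring and releases iron, carbon monoxide and biliverdin. The young AL mice had 4.58, 4.03, 0.755 and 4.85 CPM, the young EOD mice 4.31, 7.91 and 7.49, the old AL mice 7.46, 4.07, 6.05 and 5.72, and the old EOD mice 4.52, 5.01, 3.50 and 7.70. Young AL replicate 3 was the lowest, and the other groups overlapped with the young AL mice. The age difference on the log2 scale was 0.74 in AL (95% confidence interval -0.04 to 1.51) and -0.32 in EOD mice (-1.13 to 0.49). Without young AL replicate 3 the AL value was 0.38 (-0.18 to 0.93). Neither was called, and the intervals of Hmox1 were the widest of the 10 in both comparisons.

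Gclc and Gclm, the subunits of glutamate-cysteine ligase, were close to level across age. Gclc had group means of 79.6 ± 6.12 CPM in young AL, 78.2 ± 6.11 in young EOD, 80.7 ± 3.38 in old AL and 79.6 ± 4.62 in old EOD mice (SD, n = 4, 3, 4 and 4). Its log2 fold change with age was 0.02 in AL (95% confidence interval -0.14 to 0.18) and 0.03 in EOD mice (-0.15 to 0.20). Gclm had 91.8 ± 7.38, 94.8 ± 1.98, 85.2 ± 8.24 and 94.96 ± 3.79 CPM in the same order, and its log2 fold change with age was -0.10 in AL (-0.27 to 0.06) and 0.00 in EOD mice (-0.17 to 0.18). An exon of Gclm overlaps the gene model Gm6061 on the same strand, and reads in the shared stretch cannot be told apart. Srxn1, the gene with the strict motif match printed above, had 135.0 ± 9.38 CPM in young AL, 129.3 ± 8.93 in young EOD, 135.0 ± 4.24 in old AL and 136.7 ± 7.97 in old EOD mice. Its intervals for the log2 fold change with age were -0.15 to 0.15 in AL and -0.08 to 0.24 in EOD mice.

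Among the superoxide dismutases, Sod1 (chr16:90220742-90226322, plus strand) was the one with a small p in EOD mice. The young EOD mice had 78.1, 79.95 and 99.4 CPM and the old EOD mice 104.1, 102.0, 99.1 and 108.1. The groups overlapped through 1 mouse on each side. The log2 fold change was 0.27 (SE 0.10, unadjusted p = 0.0167), with an adjusted p of 0.737 in edgeR. Under AL feeding Sod1 had 81.9, 107.3, 104.7 and 94.0 CPM at the young age and 89.5, 98.8, 112.4 and 100.02 at the old age, and the log2 fold change was 0.04 (95% confidence interval -0.15 to 0.24). Sod2 was the least variable member. It had 154.0 ± 4.71 CPM in young AL, 163.7 ± 4.16 in young EOD, 149.6 ± 6.65 in old AL and 160.2 ± 5.63 in old EOD mice, and its log2 fold change with age was -0.04 in AL (-0.17 to 0.08) and -0.03 in EOD mice (-0.17 to 0.11).

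Of the enzymes that remove hydrogen peroxide, Cat had 55.1 ± 3.33 CPM in young AL, 55.1 ± 1.84 in young EOD, 56.8 ± 4.45 in old AL and 52.6 ± 0.520 in old EOD mice. Its log2 fold change with age was 0.04 in AL (95% confidence interval -0.12 to 0.21) and -0.07 in EOD mice (-0.24 to 0.11). Gpx1 had 39.3 ± 6.79, 32.6 ± 4.47, 38.3 ± 5.65 and 35.3 ± 2.92 CPM in the same order. Its log2 fold change with age was -0.05 in AL (-0.31 to 0.22) and 0.11 in EOD mice (-0.18 to 0.39).

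**Figure D3:**
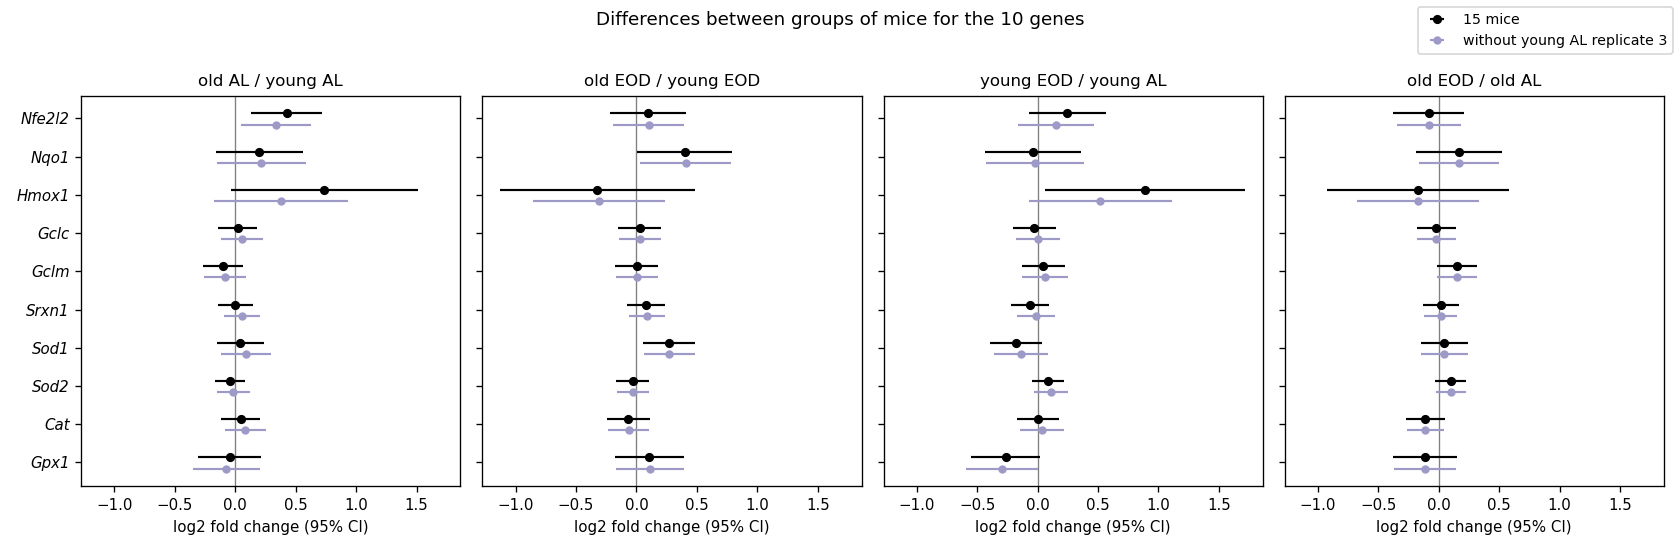
Log2 fold change with its 95% confidence interval for each gene in the comparisons of 2 groups, from the fit of 15 mice (black) and without young AL replicate 3 (purple). Intervals of Sod2, Srxn1, Cat, Gclc and Gclm are narrow and include 0, and those of Hmox1 are the widest. The values of Nfe2l2 and Hmox1 against young AL mice move towards 0 without that mouse.

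EOD feeding was compared with AL feeding at each age. In young mice edgeR called 0 of 10 members, against 0% of all genes tested, and in old mice 0 of 10, against 0%. Averaged over ages it called 0 of 10, again against 0%. The members with an unadjusted p under 0.05 numbered 1 at the young age, 0 at the old age and 1 over both ages together, against 4.14%, 2.58% and 4.51% of all genes. Without young AL replicate 3 they numbered 0, 0 and 2. DESeq2 called 0 members in each. The median log2 fold change of the 10 members lay between -0.01 and 0.02 in these comparisons, and 5 of 10 members were above 0 in each.

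The diet difference of the greatest size was that of Hmox1 in young mice. Its log2 fold change was 0.89 (95% confidence interval 0.06 to 1.72, unadjusted p = 0.0369, adjusted p = 0.996 in edgeR), and 0.52 (-0.07 to 1.11) without young AL replicate 3. Within the lane that holds that mouse the difference was 3.03, and in the other lane with both groups 0.00. In old mice it was -0.17 (-0.92 to 0.58). The 3 young EOD mice were all above the 4 young AL mice for Nfe2l2, by a log2 fold change of 0.25 (-0.07 to 0.57). Without young AL replicate 3 it was 0.15 (-0.16 to 0.47), and within the lane that does not hold that mouse 0.04. In old mice the Nfe2l2 groups overlapped and the value was -0.08 (-0.37 to 0.21). Sod2 had a log2 fold change with EOD of 0.09 in young and 0.10 in old mice and 0.09 averaged over ages (SE 0.04, unadjusted p = 0.0485, adjusted p = 0.983 in edgeR). Gpx1 had -0.26 in young and -0.11 in old mice and -0.19 averaged (SE 0.09, unadjusted p = 0.0573, and 0.044 without young AL replicate 3). Neither passed the adjustment. For the other members the log2 fold change with diet in either age group lay between -0.18 (Sod1, young mice) and 0.17 (Nqo1, old mice). Among them Gclm had 0.15 in old mice (-0.01 to 0.32). Its unadjusted p of 0.0663 was the smallest of the 10 there (adjusted p = 0.9999 in edgeR).

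Whether the age difference depended on diet was tested as the interaction. edgeR called 0 of 10 members, against 0% of all genes, with 0 members at an unadjusted p under 0.05 (2.28% of all genes), and DESeq2 called 0. The interaction was -0.33 for Nfe2l2 on the log2 scale (95% confidence interval -0.76 to 0.10), that is, a smaller age difference in EOD than in AL mice, with an interval that includes 0. For Hmox1 it was -1.06 (-2.18 to 0.06), and -0.69 (-1.47 to 0.09) without young AL replicate 3. For Sod1 it was 0.23 (-0.06 to 0.52) and for Nqo1 0.20 (-0.33 to 0.73).

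The intervals show the sizes of difference these data can bound. In old against young AL mice the 95% confidence interval lay within a 1.5-fold difference in either direction for 8 of 10 members and within 2-fold for 9. In old against young EOD mice these numbers were 8 and 9, for diet in young mice 9 and 9, and for diet in old mice 9 and 10. The member outside the 2-fold bounds was Hmox1 in each of the 3 comparisons where there was one.

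Across the 15 mice, all 45 pairs of members were compared by their log2 CPM, and 2 pairs had an adjusted permutation p of Pearson's r under 0.05 (100000 permutations, Benjamini-Hochberg). Nfe2l2 and Hmox1, the regulator and the target with the widest spread, varied together. Their Pearson's r was 0.785 (permutation p = 0.0004, adjusted p = 0.018) and their Spearman's rho 0.707 (permutation p = 0.00393, adjusted p = 0.0816). The r was 0.852 after leaving out the 2 mice with Nfe2l2 values farthest from the median, 0.693 without young AL replicate 3, 0.845 among the 6 mice of lane 2, and 0.749 for deviations from the group means. Young AL replicate 3, the lowest mouse for both genes, was left out only in the fit that gave 0.693. The deviations from the group means were not correlated without it. The other lanes held fewer than 6 mice. Gclm and Gpx1 varied in opposite directions, with r = -0.723 (permutation p = 0.00182, adjusted p = 0.041) and rho = -0.739 (permutation p = 0.00249, adjusted p = 0.0816). Their r was -0.505 without the 2 mice farthest in Gclm, -0.731 without young AL replicate 3 and -0.715 within lane 2. The remaining 43 pairs did not pass. Over all genes tested, those whose log2 CPM followed Nfe2l2 most closely over the 15 mice were Xbp1, a transcription factor of the unfolded protein response (r = 0.897, 0.838 without young AL replicate 3), 5830418P13Rik (0.882 and 0.817) and St6gal1, a sialyltransferase (0.881 and 0.818). The mice share libraries and depth across these genes, and these 3 values are a description.

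Around the 10 members, 52 further genes of the same defence were read from the same fit, in 6 lists. The lists were written with earlier results of these data known. Their counts of calls beside the background are therefore a description only. All 52 passed the filter. With age in AL mice 2 of 52 rose and 0 fell at an adjusted p under 0.1, in EOD mice 0 changed and 6 had an unadjusted p under 0.05, and averaged over diets 2 rose and 0 fell. Without young AL replicate 3 these calls were 1 in AL (Fth1), 1 in EOD (Fth1) and 3 averaged over diets (Fth1, Gstm1 and Gss). In the fit of 15 mice the background shares of all genes called are the 1.09%, 0.29% and 2.3% given above. The shares in the fit without young AL replicate 3 are not given here. Leaving out each mouse in turn gave 102 to 221 genes called in AL and 19 to 76 in EOD. Averaged over diets it gave 216 to 425. In EOD mice DESeq2 called 1 of the 52, Fth1 (adjusted p = 0.0149). For diet edgeR called 0 of 52 in young mice, in old mice and over both ages, where 4, 0 and 4 had an unadjusted p under 0.05. For the interaction it called 0 of 52, with 1 gene at an unadjusted p under 0.05, and DESeq2 called 0 in each of these. The median log2 fold change of the 52 averaged over diets was 0.05, against 0.00 over all genes tested.

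Fth1, the heavy chain of ferritin that stores iron in a redox-inert form and is a known Nrf2 target, was the clearest of these. It had 798, 1059, 954 and 864 CPM in young AL, 884, 830 and 966 in young EOD, 1095, 1181, 1272 and 1202 in old AL, and 1161, 1147, 1064 and 1269 in old EOD mice. All 8 old mice were above all 7 young mice. The log2 fold change averaged over diets was 0.37 (SE 0.06), with an adjusted p of 0.000955 in edgeR. It was 0.37 in AL (SE 0.08, adjusted p = 0.0278) and 0.38 in EOD mice (SE 0.09, adjusted p = 0.114, and 0.0797 without young AL replicate 3), and the interaction was 0.01 (95% confidence interval -0.24 to 0.25). The AL call was lost in a fit of the compared groups alone (adjusted p = 0.111 in edgeR), without old AL replicate 3 (adjusted p = 0.135), and with the lane as a covariate and young AL replicate 3 left out (adjusted p = 0.158). Gstm1, a mu-class glutathione transferase, had 80.2 to 91.2 CPM in young AL, 78.3 to 92.7 in young EOD, 94.4 to 112.2 in old AL and 102.2 to 104.9 in old EOD mice, so that old and young mice did not overlap. It rose by a log2 fold change of 0.27 averaged over diets (SE 0.05, adjusted p = 0.0118 in edgeR). Within a diet edgeR did not call Gstm1, with 0.26 in AL (adjusted p = 0.136) and 0.27 in EOD mice (adjusted p = 0.383). In AL it passed in DESeq2 (adjusted p = 0.0455) and in edgeR without old AL replicate 1 (0.0822). Reads that matched other ferritin or mu-class sequences equally well were dropped by the mapping quality limit, so that these counts rest on unique stretches.

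Mgst1, a membrane-bound glutathione transferase that also reduces lipid peroxides, was called by edgeR with age in AL mice. It had 12.8, 11.1, 7.25 and 9.04 CPM in young AL, 12.4, 12.7 and 15.8 in young EOD, 16.04, 15.1, 16.5 and 14.04 in old AL, and 14.5, 13.2, 16.7 and 14.4 in old EOD mice. All 4 old AL mice were above the 4 young AL mice, and young and old EOD mice overlapped. The log2 fold change was 0.63 in AL (SE 0.16, adjusted p = 0.066 in edgeR) and 0.11 in EOD mice (SE 0.17, adjusted p = 0.995). The interaction was -0.52 (95% confidence interval -0.99 to -0.05, adjusted p = 0.9998), so that a difference between the diets did not pass. Without young AL replicate 3, the lowest mouse, the AL value was 0.50 and the call was lost (adjusted p = 0.153 in edgeR). The call was lost as well without young AL replicate 4 or old AL replicate 1, 2 or 3 (adjusted p = 0.1304 to 0.207 in edgeR). It therefore did not rest on 1 library alone. Beside these age differences, the summed microglia markers (Cx3cr1, P2ry12, Csf1r and Tmem119) were 192 to 203 CPM in young AL, 189 to 196 in young EOD, 213 to 225 in old AL and 204 to 236 in old EOD mice, and their part in the result was not tested.

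**Figure D4:**
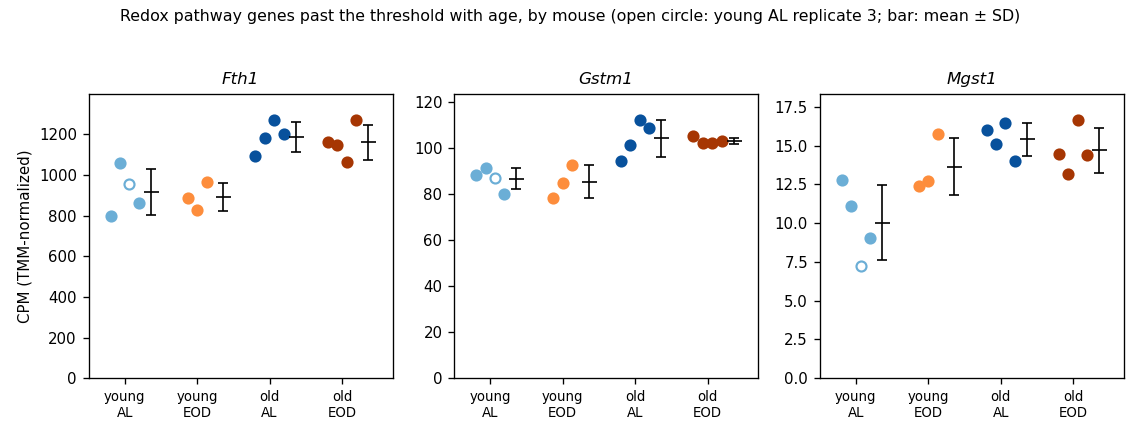
TMM-normalized CPM of Fth1, Gstm1 and Mgst1 in each mouse by group (points, axes from 0), with mean ± SD and young AL replicate 3 as an open circle. All old mice are above all young mice for Fth1 and Gstm1, while for Mgst1 the young EOD mice overlap the old mice.

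The remaining named genes of the lists did not pass the threshold with age in the fit of 15 mice. Gss, glutathione synthetase, had a log2 fold change of 0.27 averaged over diets (SE 0.08, adjusted p = 0.125 in edgeR), and Gpx4, the peroxidase that protects membranes from lipid peroxidation, had 0.25 (SE 0.08, adjusted p = 0.158). Gss passed in edgeR without young AL replicate 3 (adjusted p = 0.0979), without young EOD replicate 1 (0.0615) and with total library size (0.0973), and Gpx4 passed without young AL replicate 2 (0.0648). Of the enzymes that supply NADPH, G6pdx had 0.18 and Tkt 0.18, and all 6 genes of that list were above 0 (0 called). Slc40a1, the iron exporter ferroportin, had -0.31 and Gpx8, a peroxidase of the endoplasmic reticulum, -0.47, both uncalled. Gpx8 passed in DESeq2 without young AL replicate 3 (adjusted p = 0.0902). Among the partners and regulators of Nrf2, the small Maf gene Maff had 0.53 (95% confidence interval -0.11 to 1.17) and Sqstm1, the autophagy receptor p62 that competes with Nrf2 for Keap1, had 0.10 (-0.01 to 0.21). Keap1 itself had -0.04 (-0.19 to 0.11), and 0 of 8 in that list were called. In the thioredoxin and peroxiredoxin system, which holds the substrates of Srxn1, 0 of 12 were called, and the mitochondrial Prdx3 had -0.12 (-0.24 to 0.01) and Prdx5 0.10 (-0.03 to 0.23).

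**Figure D5:**
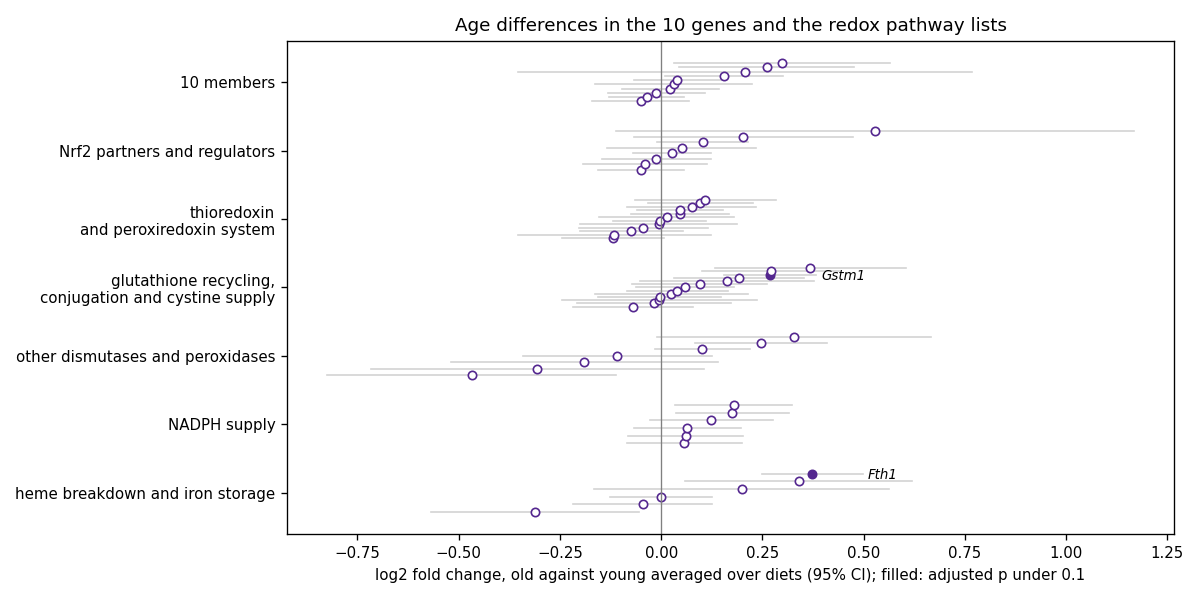
Log2 fold change of old against young mice averaged over diets (points) with 95% confidence intervals (lines) for the 10 members and the 52 further genes by list, filled where the adjusted p was under 0.1. The filled points are Gstm1 and Fth1, and none of the 10 members is filled.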

How the data were processed

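The authors trimmed the reads, aligned them with STAR to GRCm38, ran featureCounts 1.5.0-p1 on the annotation of Ensembl release 79 (reverse-stranded, primary alignments, mapping quality of at least 5) and deposited the count of each gene per mouse without normalization. Gene coordinates are those of the deposited files, and symbols were matched to their Ensembl identifiers for 42462 of 43629 genes. Samples were grouped by the labels. From the counts, edgeR 4.0.16 in R 4.3.3 was run with filterByExpr, TMM normalization and the quasi-likelihood test on 4 group means in 15 mice, with Benjamini-Hochberg adjustment over the 15864 genes tested and the study's threshold of 0.1. CPM values used TMM-scaled library sizes, and log2 CPM a prior count of 2. Standard errors were derived from the F statistic. The p-values of edgeR set a difference between groups against the spread between mice. For the correlations, the permutations shuffled all 15 mice without regard to group. At these depths low genes such as Hmox1 carry a large counting error. The members, the gene lists and the tests were chosen with earlier results of these data known. Named in the text are the 10 members, list genes called in any of the 7 comparisons, in each list the 2 genes with the smallest p for age averaged over diets, and the 3 genes most correlated with Nfe2l2. Keap1 was named after its values were seen. Correlations used scipy 1.17.1. Alternatives were RLE size factors, total library size, 2 other filters, DESeq2 1.42.0, a threshold of 0.05, the replicate block, the sequencing lane, the compared groups alone and each mouse left out. Fits with DESeq2, the block or the lane without young AL replicate 3 were added once the data were known. The edgeR steps were tested on simulated data. Sequences were read from RefSeq promoter windows.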

Additional observations from a re-analysis of the deposited data

Results flagged for a closer look

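Groups of 4 mice were searched for a mouse far from the other 3 (a gap to its nearest neighbour above 0.829 of the group's range). Among 69 groups of the members and named list genes 3 were found, and chance alone flags about 1 group in 20. Nfe2l2 was 15.56 CPM in young AL replicate 3, against 20.0 to 20.61 in the other young AL mice. Nqo1 was 5.462 CPM in old EOD replicate 2, against 8.176 to 8.287 in the other old EOD mice, and it lay within the range of the young mice. Maff was 1.99 CPM in old AL replicate 1, against 1.513 to 1.575 in the other old AL mice.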

How the results depend on the processing

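Of 1860 member values under 27 alternatives, 1768 kept their direction and their side of the threshold, 91 changed sign and 1 (Nfe2l2, above) passed it. The values that changed sign had main log2 fold changes of at most 0.207 in size, none of them called. Fits on 14 mice leave out young AL replicate 3. Depth limits Hmox1 most (10 to 80 counts per mouse), and 3 or 4 mice a group bound its differences only loosely.

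The count of genes called varied more. With every gene of at least 1 count kept it was 444 for age in AL (1 member), 100 for age in EOD, 653 for age averaged over diets, 26 for diet in young, 27 for diet in old, 65 for diet averaged over ages and 26 for the interaction. The compared groups alone gave 86 for age in AL. DESeq2 gave 70 for age in EOD and 1 for diet in young, and on 14 mice 97 for age in EOD and 2 for diet in old. A threshold of 0.05 gave 229 and the lane 237 for age averaged over diets, and for diet in old the lane gave 2, and 3 on 14 mice. Leaving out each mouse gave 102 to 221 for age in AL, 19 to 76 for age in EOD and 216 to 425 for age averaged over diets, and 0 of 10 members in each. The lowest came without old AL replicate 3, young EOD replicate 1 and young EOD replicate 2.

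Replicate numbers recur across groups. Same-numbered mice did not deviate together on average (mean r = -0.027 over 21 pairs, against 0.0087 over 63 other pairs). These means come from few mice a group and cannot show whether the numbers mark a pairing. The labels do not say what the numbers stand for. With the replicate block as a term, edgeR called 155 genes for age in AL, 35 for age in EOD and 250 for age averaged over diets, and 0 in the other comparisons. Under the block 0 of 10 members were called in each, no other call on a member changed, and Mgst1 lost its call for age in AL (adjusted p = 0.115).

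Log2 fold changes that changed sign were at most 0.207 in size in the main fit and at most 0.129 under the alternative. They included Hmox1 for age averaged over diets (main 0.207) and Nqo1 for the interaction (main 0.201). With RLE size factors the value was 0.00148 for Srxn1 (age in AL) and -0.000542 for Cat (diet in young). With total library size the value was 0.0126 for Srxn1 (age in AL) and -4.91e-06 for Cat (diet in young). With every gene kept the value was 0.00620 for Srxn1 (age in AL). With at least 10 counts in every mouse the value was 0.00307 for Srxn1 (age in AL) and -0.00403 for Cat (diet in young). With DESeq2 the value was 0.00193 for Srxn1 (age in AL). With the replicate block the value was 0.00150 for Srxn1 (age in AL), 0.00429 for Nqo1 (diet in young) and -0.0131 for Cat (diet in young). With the compared groups alone the value was 0.00215 for Srxn1 (age in AL) and -2.12e-05 for Gclm (age in EOD). With DESeq2 on 14 mice the value was 0.0495 for Srxn1 (age in AL), 0.00476 for Cat (age averaged over diets), -0.0174 for Gclc (the interaction) and -0.00555 for Sod2 (the interaction). With the block on 14 mice the value was 0.0456 for Srxn1 (age in AL), -0.00686 for Hmox1 (age averaged over diets), 0.00805 for Cat (age averaged over diets) and 0.00838 for Nqo1 (diet in young). With the lane on 14 mice the value was 0.0763 for Srxn1 (age in AL), -0.0187 for Gclm (age in EOD), -0.00277 for Hmox1 (age averaged over diets), 0.0226 for Cat (age averaged over diets), 0.129 for Nqo1 (diet in young), 0.00657 for Gclc (diet in young), 0.0125 for Srxn1 (diet in young), 0.0119 for Srxn1 (diet averaged over ages), -0.0332 for Nqo1 (the interaction), -0.0224 for Gclc (the interaction), -0.00113 for Srxn1 (the interaction) and -0.0331 for Sod2 (the interaction). With the lane the value was -0.0114 for Gclm (age in EOD), 0.0362 for Nqo1 (diet in young) and -0.00535 for Cat (diet in young). With each mouse left out in turn, ranges crossed 0 for age in AL from -0.0188 to 0.0927 for Sod1, -0.0224 to 0.0551 for Srxn1, -0.0272 to 0.0534 for Gclc and -0.134 to 0.0510 for Gpx1. They did so for age in EOD from -0.0192 to 0.0926 for Gclc, -0.0213 to 0.0193 for Gclm and -0.00685 to 0.151 for Nfe2l2. They did so for age averaged over diets from -0.0333 to 0.00919 for Cat, -0.0155 to 0.0824 for Gpx1 and -0.000313 to 0.0554 for Gclc. They did so for diet in young from -0.0916 to 0.0200 for Gclc, -0.0270 to 0.0358 for Cat and -0.103 to 0.0354 for Nqo1. They did so for diet in old from -0.188 to 0.00728 for Nfe2l2, -0.0438 to 0.00779 for Gclc, -0.00272 to 0.103 for Sod1 and -0.00846 to 0.0534 for Srxn1. They did so for diet averaged over ages from -0.0510 to 0.00279 for Srxn1 and -0.0544 to 0.00112 for Gclc. They did so for the interaction from -0.0378 to 0.0743 for Gclc and -0.0172 to 0.0401 for Sod2. The causes were not tested.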
